A study of Mus musculus with 18 samples.

Results

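R1E cells given adriamycin were compared with R1E cells that were mock treated, 4 arrays against 4, chosen by their labels from the 18 arrays of the series. R1E is a line of mouse embryonic stem cells, and it was grown with leukemia inhibitory factor, the cytokine that holds such cells undifferentiated. Adriamycin, also called doxorubicin, was given at 0.5 µM for 8 hours. The other arrays were 4 of R1E cells irradiated with ultraviolet light (UV) at 25 J/m2 and 6 of p53-/- mouse embryonic stem cells of a mixed 129X1 x 129S1 background, 3 untreated and 3 given the same dose of adriamycin for the same time. No genotype is given for R1E cells. Nothing in the labels ties the 4 arrays of a group to independent cultures, and the p-values therefore reflect only how far these arrays differ, which may be technical.

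Adriamycin traps topoisomerase II on the DNA it has cut, and the breaks switch on kinases that stabilise p53. The p53 protein is a transcription factor that binds paired decamers of DNA, its response element, and raises genes of arrest, repair and cell death. In embryonic stem cells it is also known to act against the genes that keep the cells undifferentiated. A list of 60 known p53-activated targets and a list of 59 genes of the pluripotency network were set aside when genes were named. What follows describes other families of genes that rose and fell. The counts of those families can include members of the 2 lists.

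Values are log2 intensities, so a difference of 1 is a 2-fold change, and changes are given with their moderated standard error (SE). Array medians over the probes that name 1 gene lay between 5.93 and 5.97 in mock and between 6.07 and 6.09 after adriamycin. All 15 embryonic stem cell markers that were listed lay above the level that 95% of olfactory receptor genes did not pass (4.35), with a summed linear intensity of 31195 to 32367 in mock and 20983 to 22609 after adriamycin, and 14 of them were called lower. Over all genes 72.0% lay above that level on the mean of the 12 R1E arrays, so passing it is common. Of 17 measured fibroblast markers, which feeder cells would carry, 11 lay above it in mock. Postn, Lum, Dcn, S100a4, Fap and Prrx1 did not. The sums of the 17 were 918 to 1007 in mock and 950 to 1020 after adriamycin. Sums were 2320 to 2474 in mock and 2278 to 2400 after adriamycin over 15 endoderm markers, 1408 to 1535 and 1211 to 1249 over 11 trophectoderm markers, 272 to 295 and 254 to 278 over 8 mesoderm markers, and 780 to 874 and 548 to 603 over 8 neural markers. In RNA pooled from many cells, fewer cells of a type and less RNA per cell cannot be told apart. The part of other cell types in the results below was not tested.

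The comparison asked which genes changed in R1E cells after 8 hours of adriamycin. Of 19935 genes, 4380 (22.0%) were called higher and 5096 (25.6%) lower at a Benjamini-Hochberg adjusted p below 0.05 in limma. Most calls were small: 6547 of the 9476, or 69.1%, were under 1.5-fold. At least 2-fold, 779 genes (3.91%) rose and 292 (1.46%) fell. Between 1.5-fold and 2-fold the directions were nearly equal, with 936 genes (4.70%) higher and 922 (4.63%) lower, and under 1.5-fold 2665 were higher and 3882 lower. The 4 adriamycin arrays lay wholly above or wholly below the 4 mock arrays in 45.6% of all genes.

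**Figure D1:**
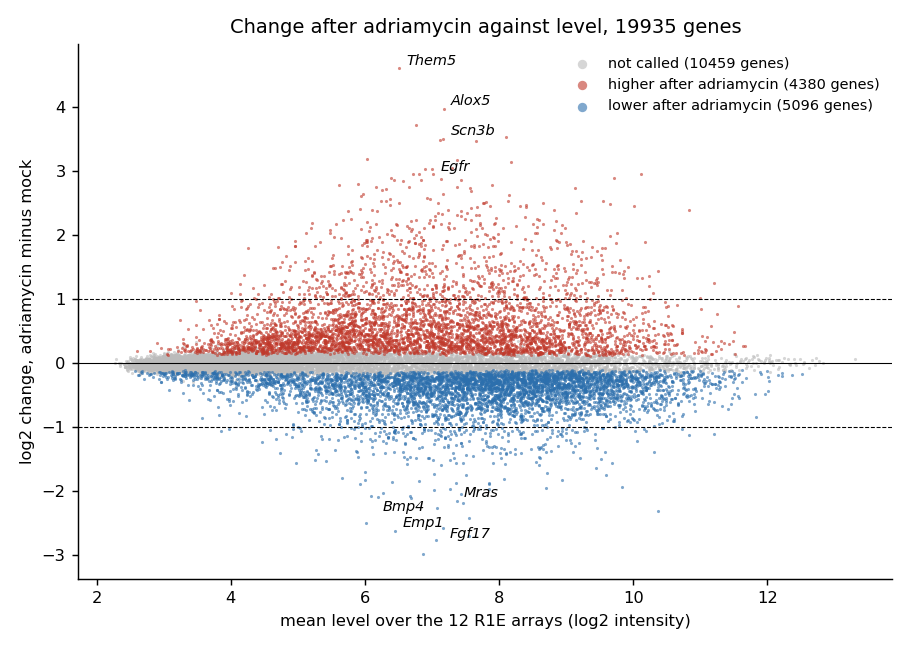
Log2 change after adriamycin (adriamycin minus mock, vertical axis) against the mean level over the 12 R1E arrays (log2 intensity, horizontal axis), 1 point for each of 19935 genes. Red points are the 4380 genes called higher and blue points the 5096 called lower, and the dashed lines at 1 and -1 mark 2-fold changes, which 779 genes passed upward and 292 downward.

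Directions differed with level. Genes were split into deciles by their mean level over the 12 R1E arrays. In decile 1, the dimmest, 0.802% were higher and 3.06% lower, in decile 6 35.3% were higher and 30.9% lower, and in decile 10 21.5% were higher and 46.9% lower. Rises of at least 2-fold were most frequent in decile 6, with 170 genes, and there were 59 in decile 10. Over the 9967 genes brighter than the median 29.0% were higher and 41.1% lower, and families of bright genes are read against those shares below. Centring each array on its median shifts every change by -0.12, which leaves 3275 genes higher and 9550 lower, and the share of calls that are higher drops from 46.2% to 25.5%. It moves the median change of all genes from -0.02 to -0.14. Of 1027 olfactory receptor genes, mostly dim, 11 were higher and 26 lower as deposited, but 2 and 496 after centring. Quantile normalization gave 4238 genes higher and 5495 lower, with a median of -0.03. Because of the shift by centring, the median of a list is given below as its distance from the median of all genes, which centring does not move. Counts after centring are given where they turn a list's balance, and they lean towards lower calls.

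**Figure D2:**
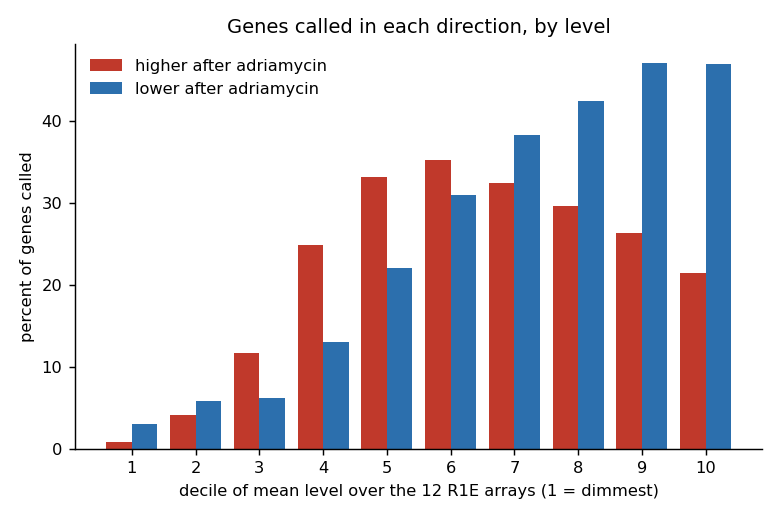
Percent of genes called higher (red) and lower (blue) after adriamycin in each decile of genes ordered by mean level over the 12 R1E arrays, from dimmest (1) to brightest (10). The share lower climbs over the deciles to 46.9% in decile 10 (47.0% in decile 9), whereas the share higher peaks at 35.3% in decile 6.

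The largest rises outside the lists set aside were in genes of enzymes, channels, surface proteins and an epithelial keratin. Them5, an acyl-CoA thioesterase of mitochondria, read 3.86, 3.74, 3.95 and 3.98 in the mock arrays and 8.48, 8.49, 8.53 and 8.44 after adriamycin, a 24.4-fold rise (4.61 ± 0.06 SE). Alox5, the lipoxygenase that starts leukotriene synthesis, read 5.09, 5.07, 5.06 and 5.21 in the mock arrays and 9.08, 9.09, 9.10 and 9.07 after adriamycin (15.7-fold). Ppp1r36, a regulatory subunit of protein phosphatase 1, read 4.81, 4.56, 4.60 and 4.51 in the mock arrays and 8.27, 8.27, 8.46 and 8.34 after adriamycin (13.1-fold). In these genes the lowest adriamycin array stood more than 2 log2 units above the highest mock array. Scn3b, a beta subunit of voltage-gated sodium channels, read 5.23, 4.90, 5.17 and 5.23 in the mock arrays and 8.64, 8.56, 8.79 and 8.57 after adriamycin (3.51 ± 0.07). Gpx6, a glutathione peroxidase, read 4.72, 5.18, 5.05 and 4.86 in the mock arrays and 8.27, 8.31, 8.61 and 8.58 after adriamycin (3.49 ± 0.10), with the widest spread of these 5 genes in mock.

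Cpz, a carboxypeptidase with a Wnt-binding domain, read 5.73, 5.73, 5.81 and 5.54 in the mock arrays and 9.26, 9.09, 9.28 and 9.03 after adriamycin (3.46 ± 0.07). Pm20d1, a secreted enzyme that joins fatty acids to amino acids, read 6.43, 6.37, 6.32 and 6.35 in the mock arrays and 9.57, 9.54, 9.59 and 9.37 after adriamycin (8.85-fold). Egfr, the receptor of epidermal growth factor, read 5.82, 5.67, 5.81 and 5.82 in the mock arrays and 8.74, 8.68, 8.76 and 8.71 after adriamycin (2.95 ± 0.05). These arrays did not overlap, and the spread within a group was small beside the change. Cd109, a membrane-anchored co-receptor that restrains TGF-beta signalling, rose 7.44-fold, Col6a4, a collagen VI chain, 7.36-fold, and Anxa8, a calcium-dependent membrane-binding annexin, 7.29-fold. Slc4a11, a transporter best known from the corneal endothelium, read 8.00, 7.89, 8.01 and 8.03 in the mock arrays and 10.85, 10.95, 10.84 and 10.86 after adriamycin (7.42-fold).

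Krt5, the keratin of basal epithelial cells, read 5.76, 5.90, 5.95 and 5.35 in the mock arrays and 8.77, 8.70, 8.89 and 8.82 after adriamycin (8.30-fold), and its mock arrays spread more than its adriamycin arrays. Cyp4f39, a fatty acid hydroxylase of the skin barrier, rose 8.17-fold, and the anoctamins Ano3 and Ano7 rose 8.15-fold and 7.73-fold. A second probe of Ano3 gave a change of 2.66, against 3.03 for the probe used. The other rises of this size were in Cyyr1 (9.05-fold), Arhgef33 (7.75-fold), the apolipoprotein L gene Apol8 (7.25-fold) and Sec14l5, a SEC14-like lipid-binding protein (7.24-fold). One mock array of Apol8, at 5.60, stood apart from the other 3, the highest of which was 5.10.

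The largest falls were smaller than the largest rises, between 3.68-fold and 6.19-fold, against 7.24-fold to 24.4-fold. Emp1, an epithelial membrane protein, read 7.70, 7.73, 7.73 and 7.55 in the mock arrays and 4.83, 4.79, 5.35 and 5.23 after adriamycin, a 6.19-fold fall (-2.63 ± 0.11). The growth factor gene Fgf17 read 8.45, 8.40, 8.48 and 8.17 in the mock arrays and 5.77, 5.61, 5.86 and 5.93 after adriamycin (5.98-fold). Bmp4, the bone morphogenetic protein that acts with leukemia inhibitory factor on embryonic stem cells, read 8.07, 8.01, 8.11 and 7.95 in the mock arrays and 5.70, 5.78, 5.87 and 5.73 after adriamycin (-2.26 ± 0.06). No array of either group overlapped in these genes, and Emp1 spread most among the adriamycin arrays. Mras, a GTPase of the Ras family, fell 4.45-fold, the secreted Wnt antagonist Sfrp1 4.17-fold, the receptor gene Notch4 3.68-fold and the kinase Cdk6, which drives cells out of G1, 3.70-fold. Fgf15 and Spry4, a growth factor and a feedback inhibitor of its signalling, fell 3.92-fold and 3.90-fold.

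Ddx58, which encodes the RNA sensor RIG-I, read 8.49, 8.38, 8.38 and 8.33 in the mock arrays and 6.27, 6.11, 6.27 and 6.13 after adriamycin (4.59-fold). Nt5e, the surface enzyme CD73 that makes adenosine from AMP, read 7.11, 7.21, 7.13 and 7.34 in the mock arrays and 5.23, 5.07, 5.15 and 5.19 after adriamycin (4.11-fold). Esrp1, a splicing factor of epithelial cells, read 8.19, 8.21, 8.21 and 8.12 in the mock arrays and 6.17, 6.22, 6.21 and 6.15 after adriamycin (3.99-fold). Every one of these had mock arrays more than 1.5 log2 units above its adriamycin arrays. Slc6a15, a carrier of neutral amino acids, fell 4.33-fold, Slc15a1, a carrier of small peptides, 4.24-fold, and Slc7a3, a carrier of cationic amino acids, 3.84-fold. The remaining falls of this rank were in the transcription factors Nfib (4.28-fold), Etv1 (4.24-fold) and Zfp428 (3.91-fold), the polycomb-related gene Sfmbt2 (3.73-fold) and the Cdc42 effector Cdc42ep5 (3.72-fold). A second probe of Cdc42ep5 gave -0.58 against -1.90, while second probes of Mras and Etv1 gave -1.92 and -1.82.

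**Figure D3:**
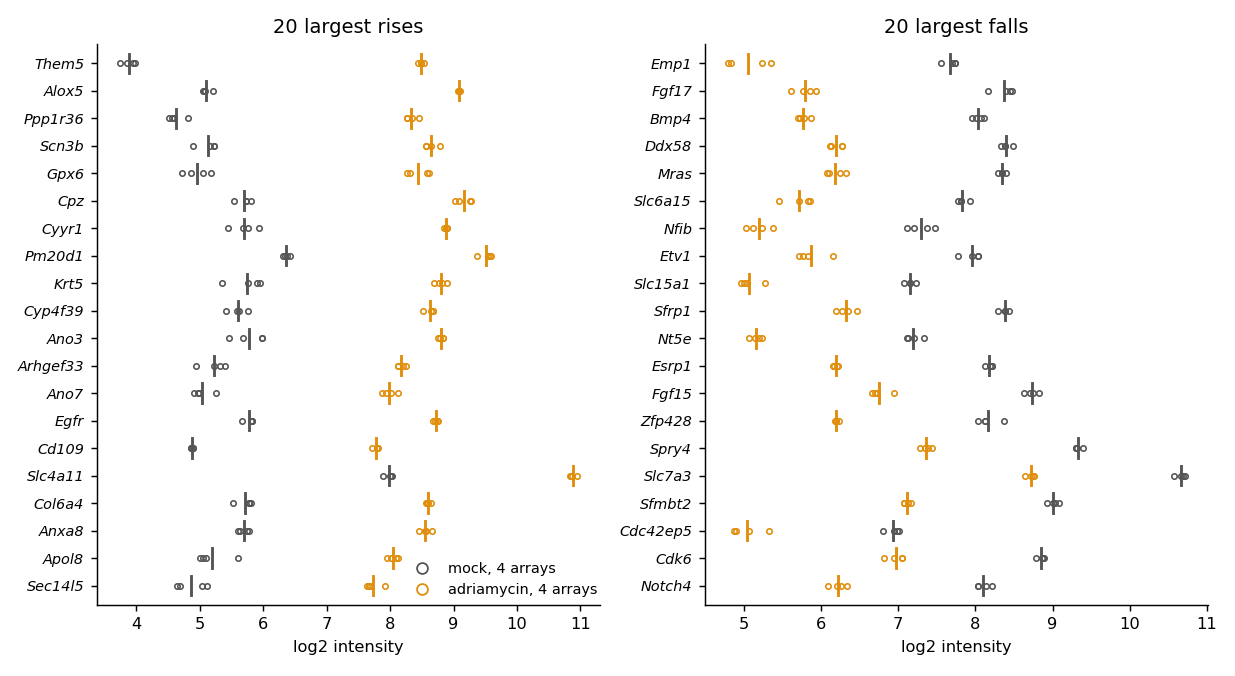
Log2 intensity (horizontal axis) on each array for the 20 genes with the largest rises (left) and the 20 with the largest falls (right) outside the lists set aside. Open circles are single arrays, grey for 4 mock and orange for 4 adriamycin, and vertical bars are group means. No gene's groups overlap, which was a condition of the choice, and the shifts are larger on the left (7.24-fold to 24.4-fold) than on the right (3.68-fold to 6.19-fold).

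The bases before the start sites of the risers were searched for the response element of p53. The search ran over the 250 bases upstream of each start in RefSeq's promoter table (GRCm38.p6), which held 15612 of the 19935 genes, for the 20-base element without a spacer, with both C and G of each decamer in place and at most 2 other mismatches (the element reads alike on both strands). A match was present for 51 genes, or 0.327% of all. It was present for 12 of 616 genes that rose at least 2-fold (1.95%), for 9 of 594 (1.52%) without the p53 list, for 6 of 773 (0.776%) that rose 1.5-fold to 2-fold, for 3 of 935 (0.321%) that fell at least 1.5-fold and for 17 of 8062 (0.211%) that were not called. These shares are descriptions, and a match is not evidence of binding. The 6 matches outside the p53 list whose genes rose more than 3-fold are shown with 20 bases on each side. Capitals mark where the element matched. None of these genes is among the 20 largest rises.
Mst1, chr9:108080334-108080393, plus strand: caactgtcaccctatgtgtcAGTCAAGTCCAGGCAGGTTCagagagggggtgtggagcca
Ms4a10, chr19:10974761-10974820, minus strand: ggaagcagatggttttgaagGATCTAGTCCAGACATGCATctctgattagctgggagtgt
Ankrd42, chr7:92637286-92637345, minus strand: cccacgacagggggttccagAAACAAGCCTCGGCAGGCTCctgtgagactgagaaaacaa
Cd80, chr16:38458802-38458861, plus strand: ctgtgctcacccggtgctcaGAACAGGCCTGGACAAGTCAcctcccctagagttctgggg
Pid1, chr1:84284664-84284723, minus strand: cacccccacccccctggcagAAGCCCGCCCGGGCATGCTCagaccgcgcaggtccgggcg
Gpr132, chr12:112861060-112861119, minus strand: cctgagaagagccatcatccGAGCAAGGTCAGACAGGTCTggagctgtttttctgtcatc
Each of these matches has 2 mismatches, and they begin between 58 and 183 bases before the start. Mst1, which encodes macrophage-stimulating protein, read 5.77, 6.12, 5.87 and 5.90 in the mock arrays and 7.99, 7.96, 8.19 and 8.19 after adriamycin (4.48-fold). Cd80, a ligand that costimulates T cells, read 5.86, 5.39, 5.73 and 5.66 in the mock arrays and 7.60, 7.46, 7.85 and 7.60 after adriamycin (3.91-fold). Gpr132, a G protein coupled receptor, read 4.77, 4.57, 4.47 and 4.58 in the mock arrays and 6.42, 6.35, 6.37 and 6.56 after adriamycin (3.54-fold). Their groups did not overlap. Ms4a10, Ankrd42 and Pid1 rose 4.39-fold, 4.33-fold and 3.73-fold. These genes were chosen for the match after their values were seen.

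Changes of moderate size, from 1.5-fold to 2-fold, are shown for the 12 rises and 12 falls with the smallest adjusted p, a choice that favours tight replicate arrays. Acad9, an acyl-CoA dehydrogenase that also assembles respiratory complex I, read 8.66, 8.63, 8.64 and 8.62 in the mock arrays and 9.60, 9.59, 9.68 and 9.61 after adriamycin (1.98-fold, adjusted p = 2.71e-11). Pfkm, the muscle-type phosphofructokinase of glycolysis, read 8.66, 8.66, 8.65 and 8.58 in the mock arrays and 9.52, 9.57, 9.66 and 9.64 after adriamycin (1.95-fold). Srgap2, a protein that shapes membrane protrusions, read 9.17, 9.18, 9.17 and 9.17 in the mock arrays and 10.03, 10.08, 10.08 and 9.97 after adriamycin (1.83-fold). Their mock arrays spanned less than 0.1 log2 units. Mlec, a sugar-binding protein of the endoplasmic reticulum, rose 1.96-fold, Ppp2r5d, a regulatory subunit of protein phosphatase 2A, 1.93-fold, the ubiquitin ligase Brap 2.00-fold, the histone demethylase Phf8 1.85-fold and the zinc finger gene Zxdc 1.94-fold. Gltp, which carries glycolipids between membranes, rose 1.97-fold, the BMP-binding protein Twsg1 1.79-fold and the netrin receptor Unc5a 1.91-fold.

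Iron uptake genes went both ways at this size. Trf, transferrin, read 6.43, 6.37, 6.34 and 6.43 in the mock arrays and 7.23, 7.27, 7.23 and 7.25 after adriamycin (0.85 ± 0.04). Tfrc, the transferrin receptor, read 10.93, 10.96, 10.91 and 10.89 in the mock arrays and 9.96, 9.93, 9.97 and 9.97 after adriamycin (-0.96 ± 0.05). The carrier rose 1.81-fold and its receptor fell 1.95-fold, with no overlap of arrays in either. Anxa7, a calcium-dependent annexin, had the smallest adjusted p of the moderate falls (1.15e-11), with 8.08, 8.04, 8.04 and 8.04 in the mock arrays and 7.04, 7.04, 7.09 and 7.07 after adriamycin. Ubqln2, a shuttle of ubiquitinated proteins, fell 1.97-fold, the tyrosyl-tRNA synthetase Yars 1.89-fold, the de novo DNA methyltransferase Dnmt3a 1.84-fold and Enoph1, an enzyme of methionine salvage, 1.90-fold. Racgap1, a subunit of the centralspindlin complex of cytokinesis, fell 1.82-fold, Arhgef39 1.94-fold, and the actin-binding proteins Lima1 and Rai14 1.90-fold and 1.87-fold. Ildr1, a protein of tricellular junctions, fell 1.84-fold and Pgap6, an enzyme that acts on GPI-anchored proteins, 1.93-fold.

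Across families, 114 lists of genes were described by their counts. Where a count below stands without a share, the shares of all genes were 22.0% higher and 25.6% lower. A decile beside a count is that of the list's median level. The median of 61 lists lay above that of all genes and the median of 53 below it. As deposited 55 lists had more genes higher than lower and 54 the reverse. After centring, which moves the median of all genes to -0.14, these were 8 and 102. Among the 8 that kept an upward balance were integrins, laminins, purinergic receptors, voltage-gated sodium channels, sugar and monocarboxylate transporters, fatty acid oxidation and genes of the 2-cell-stage embryo. Genes in families with near-identical copies, such as Usp17l, keratin, glutathione transferase and zinc finger genes, may share hybridisation, and their single values are uncertain.

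**Figure D4:**
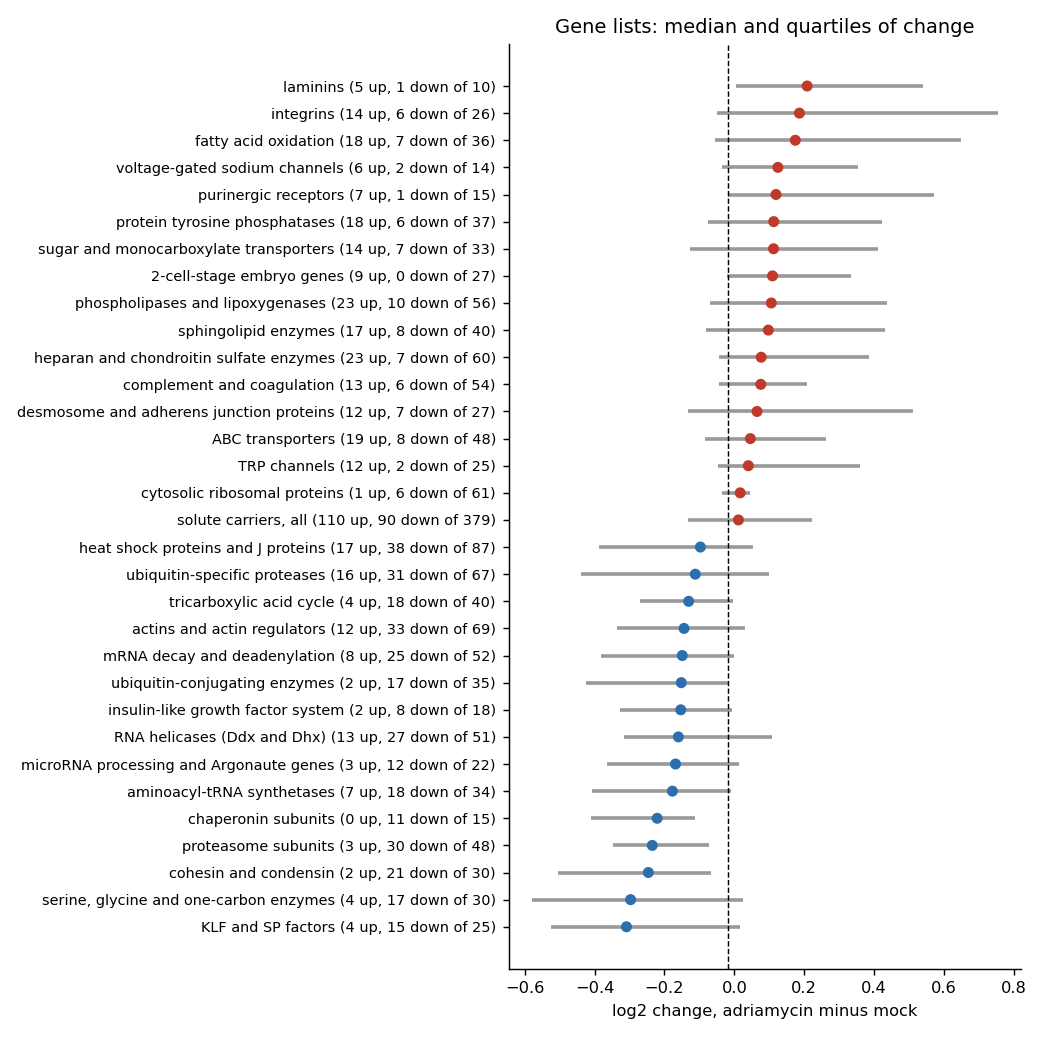
Median log2 change (adriamycin minus mock, dots) and the range between quartiles (grey bars) of 32 gene lists, with the counts of genes called higher and lower of all measured members beside each name. Red dots lie above and blue dots below the median of all genes, the dashed line at -0.02. Laminins, integrins and fatty acid oxidation lie at the top, and KLF and SP factors and the serine, glycine and one-carbon enzymes at the bottom.

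Integrins, the receptors that hold cells to matrix, were among the families most often higher. Of 26, 14 rose (53.8%, beside 22.0% of all genes and 33.1% of decile 5) and 6 fell. Their median lay 0.20 above that of all genes, and 12 rose and 9 fell after centring. Itga8 read 4.60, 4.89, 4.68 and 4.98 in the mock arrays and 7.59, 7.35, 7.41 and 7.24 after adriamycin (6.10-fold). Itgb2, the beta subunit of leukocyte integrins, read 4.76, 4.75, 4.97 and 5.11 in the mock arrays and 6.94, 7.14, 7.01 and 7.18 after adriamycin (4.50-fold). Itgb4, the partner of laminin-binding hemidesmosomes, read 6.67, 6.47, 6.59 and 6.51 in the mock arrays and 8.34, 8.43, 8.47 and 8.39 after adriamycin (3.60-fold). Against these, Itga5, the fibronectin receptor subunit, read between 8.79 and 8.88 in mock and between 6.94 and 7.15 after adriamycin (-1.81 ± 0.05), and its groups did not overlap either. Itga9 and Itgb3 fell by 0.78 and 0.50 on the log2 scale. Of 10 laminin genes 5 rose, with Lama3 at 0.82, Lamb3 at 0.68 and Lamc3 at 0.60, and Lama1, the chain of early embryonic basement membrane, fell (-0.54).

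Junction and epithelial genes moved in both directions. Desmosome and adherens junction genes had 12 of 27 higher and 7 lower, a balance that became 10 to 10 after centring. The share higher as deposited was 44.4%, beside 22.0% of all genes and 32.4% of decile 7. Evpl, envoplakin of the desmosomal plaque, rose 2.94-fold and Nectin4 rose 2.82-fold, while Nectin2 fell 2.39-fold and Dsg2, a desmosomal cadherin, 1.86-fold. Among keratins 11 of 48 rose and 5 fell, a share of 22.9% higher against 22.0% of all genes. Krt15 and Krt13, of stratified epithelia, rose 2.68-fold and 2.11-fold, and Krt17 and Krt42 fell 2.29-fold and 1.76-fold. After centring the keratin counts were 9 and 11. Cldn6, a claudin of embryonic epithelium, rose (0.64) and Cldn3 fell (-0.81), and protocadherins, whose probes were dim (4 of 34 above the olfactory level), had 0 higher and 2 lower.

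The ephrin Efnb2 read 5.71, 5.83, 5.71 and 5.59 in the mock arrays and 7.57, 7.57, 7.67 and 7.52 after adriamycin (3.66-fold), and Ephb4, a receptor for it, read 8.68, 8.67, 8.68 and 8.73 in the mock arrays and 7.52, 7.60, 7.54 and 7.74 after adriamycin (2.13-fold lower). Nrp1 rose 2.33-fold and Nrp2 fell 2.09-fold, both of them co-receptors for semaphorins and vascular endothelial growth factor. Plxna1, a semaphorin receptor, rose 2.50-fold and the ligand gene Sema3e fell 2.02-fold. In the whole Eph and ephrin list 8 of 21 rose and 6 fell (7 and 11 after centring). Adam8, a membrane metalloprotease of leukocytes, rose 4.91-fold and Adamts7, which cuts cartilage matrix proteins, 3.65-fold. Of 77 metalloproteases only 8 rose and 11 fell, and Adamts9 fell on the probe used (-0.81) and by more on 5 dimmer probes (-1.33 to -2.06). Heparan and chondroitin sulfate enzymes, which build the sugar chains of proteoglycans, had 23 of 60 higher and 7 lower (18 and 19 after centring). The share higher was 38.3%, beside 22.0% of all genes and near the 35.3% of decile 6. Chst14, a dermatan sulfotransferase, rose 2.84-fold and the proteoglycan Sdc4 2.61-fold, whereas Sulf1, which trims heparan sulfate outside the cell, fell 2.23-fold.

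Purinergic receptors, which sense extracellular nucleotides, had 7 of 15 higher and 1 lower, and 7 and 3 after centring. The share higher was 46.7%, beside 22.0% of all genes and 33.1% of decile 5. P2ry6, a receptor of UDP, read 5.67, 5.32, 5.27 and 5.61 in the mock arrays and 7.66, 7.54, 7.78 and 7.76 after adriamycin (4.66-fold). P2rx7, a channel opened by ATP, read 6.57, 6.44, 6.57 and 6.47 in the mock arrays and 8.66, 8.66, 8.70 and 8.62 after adriamycin (4.43-fold). P2rx6 rose 3.26-fold, and 3 receptors in all rose at least 2-fold. Nt5e, which makes adenosine outside the cell, was among the largest falls. Chemokines and their receptors had 10 of 55 higher and 2 lower as deposited but 9 and 22 after centring. The share higher as deposited was 18.2%, beside 22.0% of all genes and 11.7% of decile 3. Cxcl10, a chemokine of T cells, read 5.08, 5.11, 4.93 and 4.75 in the mock arrays and 6.75, 6.79, 6.97 and 6.91 after adriamycin (3.70-fold), and Cxcl16 and the receptor Cxcr4 rose by 0.93 and 0.78.

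In the insulin-like growth factor system 8 of 18 genes fell and 2 rose. The share lower was 44.4%, beside 38.3% of decile 7 and 41.1% of the genes brighter than the median. The falls were led by the receptor Igf1r (-0.84 ± 0.06) and the RNA-binding proteins Igf2bp3 and Igf2bp1 (-0.83 and -0.81). Igf2r, the receptor that clears the ligand, rose (0.52 ± 0.05). In the Hedgehog pathway Ptch1, receptor and target of the pathway, read 10.04, 9.96, 10.06 and 9.95 in the mock arrays and 8.47, 8.51, 8.51 and 8.56 after adriamycin (2.81-fold lower), and the transcription factors Gli2 and Gli1 fell 2.34-fold and 1.83-fold. Of that pathway's 17 genes 6 fell (35.3%, beside 25.6% of all genes and 30.9% of decile 6) and 2 rose. Il6st, the gp130 subunit through which leukemia inhibitory factor signals, read 9.63, 9.53, 9.65 and 9.59 in the mock arrays and 8.59, 8.44, 8.52 and 8.48 after adriamycin (2.14-fold lower). The PDGF, VEGF and KIT family had 10 of 20 higher, such as the lymphatic growth factor Vegfd (2.10-fold), and 5 lower, such as Pdgfc (2.18-fold) and the receptor Kit (1.72-fold), counts that became 8 and 10 after centring. Among TNF receptors and ligands outside the p53 list Tnfrsf18 rose 2.33-fold and the nerve growth factor receptor Ngfr fell 1.94-fold.

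Of 14 sodium channel genes 6 rose and 2 fell, and Scn4b, a beta subunit like Scn3b, rose 2.24-fold. Of 92 potassium channel genes 20 rose (21.7%, near the 22.0% of all genes) and 12 fell (13 and 27 after centring). The inward rectifier Kcnj4 rose 2.77-fold. The neuronal calcium channel Cacna1b rose 2.80-fold. TRP channels had 12 of 25 higher (48.0%, beside 22.0% of all genes and 11.7% of decile 3) and 2 lower, led by Trpc1 (0.90). After centring the counts were 7 and 7. Panx1, which releases ATP from cells, averaged 6.31 ± 0.10 (SD, n = 4) in mock and 7.71 ± 0.06 (SD, n = 4) after adriamycin (2.64-fold), and the connexin Gjc1 fell 2.10-fold. Gabbr1, a subunit of the GABA-B receptor, fell 2.64-fold.

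Transporters moved in both directions. Of 379 solute carrier genes 110 rose (29.0%, beside 22.0% of all genes) and 90 fell (23.7%, beside 25.6%), counts that became 86 and 168 after centring, with 31 at least 2-fold higher and 10 at least 2-fold lower. Among amino acid carriers Slc38a3, a glutamine carrier, read 6.15, 6.05, 6.17 and 6.26 in the mock arrays and 8.41, 8.32, 8.57 and 8.48 after adriamycin (4.89-fold). Slc1a4, a carrier of alanine, serine and cysteine, read 8.55, 8.56, 8.63 and 8.41 in the mock arrays and 7.08, 7.19, 7.17 and 7.26 after adriamycin (2.58-fold lower). The amino acid list as a whole had 16 of 53 higher and 18 lower. For sugars and monocarboxylates 14 of 33 rose and 7 fell (11 and 9 after centring). The insulin-regulated glucose carrier Slc2a4 rose 2.86-fold and the sodium-coupled carrier Slc5a1 3.07-fold, while the lactate carrier Slc16a1 fell 2.04-fold. Slc37a2, a sugar phosphate exchanger, read 5.93, 5.78, 5.95 and 6.01 in the mock arrays and 8.07, 8.09, 8.22 and 8.21 after adriamycin (4.70-fold).

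Of 48 ABC transporters 19 rose (39.6%, beside 22.0% of all genes and 24.9% of decile 4) and 8 fell. After centring the counts were 12 and 18. Abcb1b, a P-glycoprotein that pumps drugs such as adriamycin out of cells, read 8.12, 7.92, 8.09 and 7.81 in the mock arrays and 9.87, 9.73, 9.98 and 9.92 after adriamycin (3.70-fold, adjusted p = 4.00e-12). Abcg1, a sterol transporter, rose 2.42-fold. Abcg2, another drug pump, read 8.54, 8.51, 8.52 and 8.47 in the mock arrays and 7.63, 7.50, 7.76 and 7.64 after adriamycin (1.84-fold lower). Both drug pumps thus changed with no overlap of arrays, in opposite directions. Atp6v0a4, a subunit of the proton pump of kidney and epididymis, fell 3.28-fold. Zinc handling genes had 8 of 28 lower, with the metallothionein Mt2 at -0.84 and Slc30a2 at -0.93, and 5 higher, with Slc39a13 2.29-fold higher.

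Phospholipases and lipoxygenases had 23 of 56 higher and 10 lower, equal at 16 and 16 after centring. The share higher as deposited was 41.1%, beside 22.0% of all genes and 33.1% of decile 5. The phospholipase C genes Plcd4 and Plch2 rose 6.96-fold and 5.63-fold, and Plcd1 fell 1.75-fold. Gnal, the alpha subunit of the olfactory G protein, read 4.80, 4.80, 4.92 and 4.58 in the mock arrays and 7.58, 7.43, 7.62 and 7.33 after adriamycin (6.54-fold). Adcy2 and Adcy7, which make cyclic AMP, rose 3.54-fold and 2.22-fold, Pde5a, which breaks down cyclic GMP, rose 2.62-fold, and Pde4d and Pde9a, which break down cyclic AMP and cyclic GMP, fell 2.38-fold and 1.93-fold. Dimmer probes of Pde4d gave -0.55 and -0.46. Protein tyrosine phosphatases had 18 of 37 higher and 6 lower (11 and 11 after centring), with Ptprv at 5.80-fold and Ptpn14 at 4.08-fold. The share higher was 48.6%, beside 22.0% of all genes and 35.3% of decile 6. Dusp6 and Dusp4, phosphatases that switch off ERK, fell 2.17-fold and 1.92-fold.

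In the mTOR and AMPK pathway 16 of 42 genes rose and 15 fell (13 and 21 after centring). Ddit4l, an inhibitor of mTOR, read 8.08, 7.98, 8.09 and 7.83 in the mock arrays and 10.43, 10.46, 10.62 and 10.59 after adriamycin (5.77-fold). Flcn, folliculin, read 9.01, 8.85, 9.01 and 8.94 in the mock arrays and 10.41, 10.37, 10.38 and 10.42 after adriamycin (2.72-fold). Rragb and Rragd, GTPases that bring mTOR to the lysosome, fell 2.86-fold and 2.80-fold. The groups did not overlap in any of these 4 genes. In the Hippo pathway the receptor kinase Axl rose 2.42-fold and Tead4, a DNA-binding partner of YAP, fell 2.06-fold.

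Genes of fatty acid oxidation were higher more often than genes at large: 18 of 36 rose (50.0%, against 22.0% of all genes and 29.0% of the genes brighter than the median) and 7 fell, and the counts were 15 and 12 after centring. Cpt1c, a neuronal form of carnitine palmitoyltransferase, read 8.40, 8.25, 8.43 and 8.26 in the mock arrays and 9.84, 9.97, 10.04 and 10.06 after adriamycin (3.13-fold). Acad12, an acyl-CoA dehydrogenase, read 5.93, 5.72, 5.91 and 5.73 in the mock arrays and 7.17, 7.04, 7.57 and 7.53 after adriamycin (2.83-fold). Acaa1b, a peroxisomal thiolase, read 5.83, 6.03, 5.90 and 5.36 in the mock arrays and 7.51, 6.96, 7.42 and 7.37 after adriamycin (2.89-fold). In contrast, Cpt1a, the liver form that carries most fatty acids into mitochondria, read 8.98, 8.91, 8.95 and 8.98 in the mock arrays and 8.49, 8.35, 8.51 and 8.48 after adriamycin (-0.50 ± 0.05), and the coactivator Ppargc1b and the electron carrier subunit Etfb fell by 0.49 and 0.37. Lpin1, a phosphatidate phosphatase that also acts with PPAR coactivators, rose 2.78-fold.

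Of 82 cytochrome P450 genes 16 rose and 7 fell (15 and 34 after centring). The share higher was 19.5%, beside 22.0% of all genes and 4.11% of decile 2. Cyp27a1, of bile acid and vitamin D metabolism, rose 3.94-fold and Cyp2s1 fell 2.46-fold. Gpx3, the secreted glutathione peroxidase, read 7.51, 7.39, 7.37 and 7.38 in the mock arrays and 10.19, 10.28, 10.12 and 9.98 after adriamycin (6.63-fold). Gclm, the modifier of the enzyme that starts glutathione synthesis, fell 1.65-fold, and Chac1, which breaks glutathione down, fell 2.48-fold. Sphingolipid enzymes had 17 of 40 higher (42.5%, beside 22.0% of all genes and 35.3% of decile 6) and 8 lower. After centring the counts were 14 and 16. Among them the ceramidase Acer2 rose 3.03-fold on the probe used and gave -0.12 on a dimmer one. Ugcg, glucosylceramide synthase, was 1.61-fold lower. The ganglioside enzyme St3gal5 rose 2.83-fold, while Fut9, which makes the stem cell antigen SSEA-1, read 7.21, 7.19, 7.26 and 6.91 in the mock arrays and 5.83, 5.86, 5.88 and 6.01 after adriamycin (2.38-fold lower) and B3gnt5 fell 2.77-fold.

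Serine, glycine and one-carbon enzymes, which supply carbon for nucleotides and methylation, fell most often among the metabolic lists: 17 of 30 fell and 4 rose. The share lower was 56.7%, beside 47.0% of decile 9 and 41.1% of the genes brighter than the median. Their median lay -0.28 from that of all genes. Mthfd2, the mitochondrial folate enzyme, read 9.13, 8.95, 9.08 and 9.07 in the mock arrays and 7.95, 8.00, 7.95 and 8.06 after adriamycin (2.10-fold lower). Psat1 and the folate receptor Folr1 fell 1.70-fold and 1.83-fold. The members Cbs and Aldh1l1 went strongly the other way. Cbs, which turns homocysteine towards cysteine, read 7.81, 7.69, 7.91 and 7.77 in the mock arrays and 9.52, 9.52, 9.63 and 9.68 after adriamycin (3.46-fold). Aldh1l1, the cytosolic enzyme that removes formyl-folate, read 6.75, 6.93, 6.97 and 6.77 in the mock arrays and 8.53, 8.54, 8.77 and 8.81 after adriamycin (3.50-fold). Aldh18a1, which starts proline synthesis, fell 2.59-fold.

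In the tricarboxylic acid cycle and its feeding enzymes 18 of 40 genes fell (beside 41.1% of the genes brighter than the median) and 4 rose. Pck2, mitochondrial PEP carboxykinase, fell 2.01-fold and pyruvate carboxylase, Pcx, rose 2.13-fold. Azin2, which protects ornithine decarboxylase from its inhibitor, rose 4.83-fold and Smox, spermine oxidase, 2.60-fold. Among lysosomal genes Man2b1, the lysosomal alpha-mannosidase, read between 8.54 and 8.59 in mock and between 10.98 and 11.05 after adriamycin (5.46-fold), and Gaa, acid glucosidase, rose 2.83-fold. Tfeb, the transcription factor of lysosomal genes, read 8.11, 7.99, 8.05 and 8.01 in the mock arrays and 6.75, 6.80, 6.75 and 6.72 after adriamycin (2.44-fold lower). Over the whole lysosomal list 22 of 56 rose and 20 fell (18 and 25 after centring). Autophagy genes were split 20 to 19 of 55 (16 and 24 after centring), with Atg9b 2.62-fold higher and Bnip3, a mitophagy receptor, 2.10-fold lower. Alad and Fech, enzymes of haem synthesis, rose 2.68-fold and 2.09-fold, and the metalloreductase Steap2 fell 2.65-fold on the probe used and was higher (0.30) on a dim one.

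Of the transcription factor families KLF and SP factors were lower most often, 15 of 25 (60.0%, beside 38.3% of decile 7) against 4 higher. Their median lay -0.29 from that of all genes. Some KLF factors belong to the pluripotency network, and those named here do not. Klf8 read 8.17, 8.08, 8.17 and 7.98 in the mock arrays and 6.52, 6.49, 6.79 and 6.64 after adriamycin (2.81-fold lower). Klf12 and Klf13 fell 1.92-fold and 1.77-fold, and Sp6, of teeth and skin, rose 1.69-fold. Among SOX factors 5 of 19 fell (26.3%, near the 25.6% of all genes) and 1 rose. Sox11, of neural progenitors, was 2.79-fold lower and Sox4 2.04-fold lower. Eomes, a T-box factor of trophoblast and mesendoderm, read 7.33, 7.21, 7.15 and 7.40 in the mock arrays and 5.30, 5.37, 5.51 and 5.43 after adriamycin (3.66-fold lower), and Tbx4, of the hindlimb, rose 4.39-fold.

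Neurod1, of neurons and pancreatic islets, averaged 6.04 ± 0.14 (SD, n = 4) in mock and 8.16 ± 0.08 (SD, n = 4) after adriamycin (4.36-fold). Mesp2, of the forming somites, read 5.49, 5.69, 5.73 and 5.54 in the mock arrays and 7.54, 7.69, 7.66 and 7.76 after adriamycin (4.15-fold). Pou4f3, of inner ear hair cells, read 4.75, 5.17, 4.58 and 4.43 in the mock arrays and 6.84, 6.90, 6.75 and 6.69 after adriamycin (4.17-fold). Zfp750, of the epidermis, rose 6.22-fold. The bHLH lineage list had 13 of 50 higher and 7 lower (9 and 21 after centring). Of 45 nuclear receptors 12 rose (26.7%, near the 22.0% of all genes) and 9 fell (11 and 21 after centring). The largest of these rises were in Vdr, the vitamin D receptor (3.77-fold), Ppard, a fatty acid receptor (2.91-fold), and Nr3c1, the glucocorticoid receptor (2.83-fold).

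Rb1, the retinoblastoma protein that holds E2F factors in check, read 7.73, 7.70, 7.60 and 7.44 in the mock arrays and 9.59, 9.56, 9.57 and 9.48 after adriamycin (3.82-fold). Its relative Rbl2 read between 6.77 and 7.05 in mock and between 8.76 and 9.03 after adriamycin (3.99-fold). Both rose with no overlap, while E2f2 and E2f8 fell 1.80-fold and 1.57-fold. Of the family's 21 genes 11 were lower (52.4%, beside 42.4% of decile 8). In the circadian clock Arntl2 and Tef rose 2.86-fold and 3.13-fold and Ciart, Cry2 and Cry1 fell 2.00-fold, 1.70-fold and 1.66-fold. Of bZIP factors of the CREB, ATF and CEBP families 19 of 42 fell and 9 rose. The share lower was 45.2%, beside 30.9% of decile 6 and 41.1% of the genes brighter than the median. Atf4, which raises amino acid synthesis genes under stress, read 8.90, 8.93, 8.94 and 8.98 in the mock arrays and 7.56, 7.45, 7.60 and 7.73 after adriamycin (2.55-fold lower), and Xbp1, of the unfolded protein response, fell 1.86-fold, while Creb3l1 rose 3.40-fold. Of 344 numbered zinc finger genes 117 fell (34.0%, near the 30.9% of decile 6) and 68 rose (19.8%, near the 22.0% of all genes).

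Genes of protein synthesis and turnover were lower more often than higher as deposited in the proteasome, chaperonin and tRNA synthetase lists. Proteasome subunits, which degrade ubiquitinated proteins, had 30 of 48 lower (62.5%, against 41.1% of the genes brighter than the median and 46.9% of decile 10) and 3 higher. Psmd3 fell 1.62-fold, and Psmb9, a subunit of the immunoproteasome, read 6.52, 6.58, 6.52 and 6.55 in the mock arrays and 7.57, 7.77, 7.66 and 7.82 after adriamycin (2.24-fold higher). Chaperonin and prefoldin subunits had 11 of 15 lower (73.3%, beside 46.9% of decile 10) and none higher, with Vbp1, Pfdn6 and Cct3 at -0.80, -0.55 and -0.49. Aminoacyl-tRNA synthetases, which charge tRNAs, had 18 of 34 lower (52.9%, beside 47.0% of decile 9) and 7 higher. Besides Yars, Sars read 10.65, 10.61, 10.55 and 10.49 in the mock arrays and 9.61, 9.52, 9.80 and 9.84 after adriamycin (1.85-fold lower), and Tars fell 1.74-fold. The mitochondrial synthetases Nars2 and Cars2 rose by 0.66 and 0.58, and Tarsl2 rose 2.56-fold.

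Cytosolic ribosomal proteins were mostly not called: 6 of 61 fell, 1 rose and 54 did not pass the test as deposited, but 25 were lower after centring. Ubiquitin-conjugating enzymes had 17 of 35 lower (48.6%, beside 38.3% of decile 7) and 2 higher, led by Ube2g1 (-0.88) and Ube2e3 (-0.87). Ubiquitin-specific proteases had 31 of 67 lower (46.3%, beside 42.4% of decile 8) and 16 higher. Usp44, of the spindle checkpoint, and Cyld, which restrains NF-kappaB, rose 2.66-fold and 2.32-fold, and Usp46 fell 2.14-fold. Among adaptors and subunits of ubiquitin ligases Klhl26 rose 6.14-fold, Fbxo39 6.58-fold and Trim29 4.22-fold. Fbxo5, the mitotic inhibitor EMI1, read 9.59, 9.61, 9.51 and 9.74 in the mock arrays and 8.45, 8.23, 8.45 and 8.30 after adriamycin (2.38-fold lower). Kelch and BTB adaptors as a family had 33 of 90 higher and 19 lower (25 and 32 after centring).

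RNA helicases, Ddx58 among them, had 27 of 51 lower (52.9%, beside 47.0% of decile 9) and 13 higher, with Ddx3x at -0.55. In mRNA decay 25 of 52 genes fell (48.1%, near the 47.0% of decile 9) and 8 rose, with the exosome subunit Exosc4 at -0.72 and Btg1 at 0.77. In microRNA processing 12 of 22 fell (54.5%, beside 47.0% of decile 9) and 3 rose. Lin28b, which blocks let-7 maturation, fell 1.75-fold, and Tut7, a uridylyl transferase that acts on let-7 precursors, rose 1.86-fold. Heat shock and J proteins had 38 of 87 lower and 17 higher. The share lower was 43.7%, beside 38.3% of decile 7 and 41.1% of the genes brighter than the median. Hspb6 was 2.49-fold lower and Dnajc9, a J protein that binds histones, 2.46-fold higher.

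In the nucleus cohesin and condensin genes, which hold and fold chromosomes, had 21 of 30 lower (70.0%, beside 46.9% of decile 10) and 2 higher. Wapl, which releases cohesin, read 9.93, 9.92, 9.99 and 9.81 in the mock arrays and 9.27, 9.16, 9.21 and 9.20 after adriamycin (1.63-fold lower), Pds5a fell 1.54-fold and Sgo2a 1.62-fold, and Smc1b, the meiotic subunit, rose by 0.37. Nuclear pore genes had 16 of 30 lower (53.3%, beside 46.9% of decile 10) and 9 higher. The transmembrane members Ndc1 and Pom121 rose 2.70-fold and 2.20-fold. Lmnb1 and Lmna, the lamins, fell 1.71-fold and 1.54-fold. Among chromatin remodellers Chd5 rose 2.61-fold and Ino80, the ATPase of its complex, fell 2.30-fold. The acetyltransferase Kat2b and the corepressor Sin3a fell 2.07-fold and 2.02-fold, and the coactivator Ncoa1 rose 2.61-fold. Of the topoisomerases and their repair partners, which include the drug's target, 8 of 31 rose and 10 fell. Top1mt, the mitochondrial topoisomerase, rose 2.95-fold, and the end-joining and single-strand repair factors Nhej1 and Xrcc1 rose 2.29-fold and 1.74-fold.

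Actins and their regulators had 33 of 69 lower and 12 higher. The share lower was 47.8%, beside 42.4% of decile 8 and 41.1% of the genes brighter than the median. Enah and Vasp, which extend filaments, were 1.81-fold and 1.70-fold lower and Coro2a, a coronin, 4.03-fold higher. Myosins had 16 of 49 higher and 9 lower (14 and 20 after centring), led by Myo7a (3.31-fold). Mapre3, a protein of microtubule plus ends, read 6.13, 5.97, 5.94 and 5.94 in the mock arrays and 8.39, 8.38, 8.37 and 8.21 after adriamycin (5.09-fold). Map1b and Tuba4a fell 2.14-fold and 2.28-fold. Dyneins and ciliary transport genes had 20 of 63 higher and 13 lower (11 and 21 after centring), with Ift27 at 3.54-fold. Of the intermediate filaments the muscle genes Des and Synm rose 3.62-fold and 3.73-fold, and the neuronal genes Nefl and Ina fell 2.60-fold and 2.10-fold.

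Interferon-stimulated genes had 17 of 48 lower (35.4%, beside 25.6% of all genes) and 11 higher. Besides Ddx58, Parp14 read 6.54, 6.20, 6.30 and 6.14 in the mock arrays and 4.87, 4.69, 4.61 and 4.83 after adriamycin (2.92-fold lower). Irf1, a transcription factor of interferon responses, fell 2.35-fold on the probe used, and a dimmer probe gave -0.21 with adjusted p = 0.0621. Zbp1, a sensor of Z-form nucleic acids, read 5.58, 5.68, 5.88 and 5.61 in the mock arrays and 6.85, 6.86, 6.87 and 6.93 after adriamycin (2.28-fold higher). Complement and coagulation genes had 13 of 54 higher and 6 lower (11 and 16 after centring), with 7 at least 2-fold higher (7 of 54 beside 3.91% of all genes). Cd55, which protects cells from complement, read 5.91, 5.99, 5.69 and 5.51 in the mock arrays and 7.66, 7.34, 7.62 and 7.36 after adriamycin (3.29-fold). C1s2 and C4b, of the classical pathway, rose 3.19-fold and 2.86-fold, and Plaur, the urokinase receptor, fell 2.02-fold. Casp14, the caspase of skin, rose 6.23-fold.

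Among genes of the 2-cell-stage embryo 9 of 27 rose and none fell, and after centring 8 rose and 5 fell. The share higher as deposited was 33.3%, beside 22.0% of all genes and 11.7% of decile 3. The largest rises were in Tmem92 (1.17 ± 0.07), Usp17lb (0.93 ± 0.05) and Usp17lc (0.76 ± 0.08), the last 2 being near-identical copies. Germ cell and meiosis genes had 19 of 59 higher and 16 lower (12 and 22 after centring). Tex15 read 5.65, 5.46, 5.63 and 5.44 in the mock arrays and 7.63, 7.33, 7.54 and 7.34 after adriamycin (3.77-fold). Rec8, the meiotic cohesin subunit, rose 2.20-fold and Tdrd12, of the piRNA pathway, fell 1.90-fold. Of 46 imprinted genes 12 rose, among them Zim1 (2.35-fold), and 16 fell (34.8%, beside 25.6% of all genes and 38.3% of decile 7). Among the falls were the maternally expressed RNA Rian (2.95-fold) and the paternally expressed Mest (2.46-fold).

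The same dose in p53-/- cells gave few calls, 16 of 19935 genes (0.0803%), but those arrays spread more, with a median SE of a change of 0.140 against 0.0635 in R1E. The difference of the effects was therefore tested itself. It was called for 21.5% of all genes. On simulated data with 200 of 19935 genes changed, 9.87% of calls were false, and the share in these data may differ. The difference was called for 772 of the 779 genes that rose at least 2-fold in R1E and 282 of the 292 that fell as much. Among moderate changes it was called for 733 of the 936 rises and 714 of the 922 falls. Those genes were chosen by size on the R1E arrays that the difference also uses, which favours these counts. The same 4 sets of genes had median changes in p53-/- cells of 0.15, 0.01, 0.12 and -0.05. Cell line, genotype and the separate processing of the sets cannot be told apart in these differences, and the level of Trp53 was not analysed here.

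Each of the 20 largest rises and 20 largest falls differed between the lines. They were chosen as extreme on the R1E arrays that the difference also uses, which favours this count. Them5 changed by 0.23 ± 0.16 in p53-/- cells, a difference of 4.37 ± 0.17 (adjusted p = 1.59e-10). Egfr changed by 0.15 ± 0.14 (difference 2.79 ± 0.15), and Bmp4 by 0.49 ± 0.17 against -2.26 (difference -2.76 ± 0.18). The rises lay between -0.12 and 0.65 in p53-/- cells and the falls between -0.61 and 0.49, and 0 of the 40 was called there. Of the moderate sets 11 of 12 rises and all 12 falls differed. The exception was Trf, which changed by 0.55 ± 0.13 in p53-/- cells against 0.85 in R1E (difference 0.30 ± 0.14, adjusted p = 0.143), so a difference was not shown for it. Integrins differed for 9 genes upward and 4 downward in R1E, and serine, glycine and one-carbon enzymes for 3 and 11.

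Because only 16 genes were called in p53-/- cells at all, few of the larger changes could be called in both lines. Those that were went in the same direction. Among falls of at least 2-fold these were the histone genes H2bc14, H2bc3 and H2ac4 and the respiratory gene regulator Nrf1, and none of the 779 rises. Nrf1 had a change of -1.11 ± 0.06 in R1E and -1.12 ± 0.16 in p53-/- cells, and H2bc14 of -1.11 ± 0.09 and -1.25 ± 0.14. Of the moderate falls they were the histone genes H4c4, H1f1, H1f5 and H2bc1, and histone genes have near-identical copies, so that their single values are uncertain. Of the moderate rises Procr, the endothelial protein C receptor, rose in both (0.63 ± 0.06 and 1.01 ± 0.14). These genes were chosen after their values were seen.

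**Figure D5:**
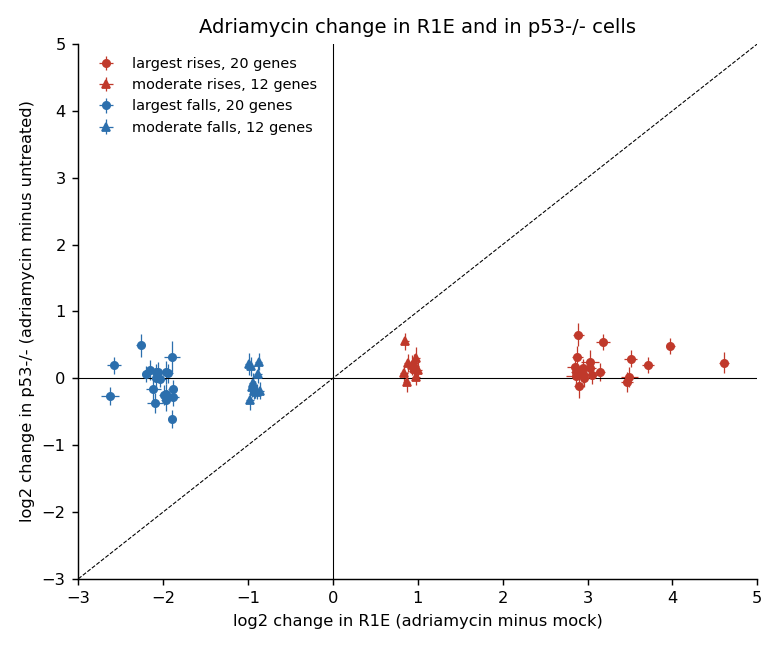
Log2 change after adriamycin in R1E cells (adriamycin minus mock, horizontal axis) and in p53-/- cells (adriamycin minus untreated, vertical axis) for the 64 genes of the largest and moderate changes, with SE bars. Circles are the largest and triangles the moderate changes, red for rises and blue for falls in R1E, which chose them, and the dashed line marks equal change. In p53-/- cells the points lie between -0.61 and 0.65.

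Adriamycin was set against UV in the same R1E cells, a contrast that shares its adriamycin arrays with the comparison to mock. It was called for 41.8% of all genes. Of the 779 genes that rose at least 2-fold, 665 were higher and 15 lower after adriamycin than after UV, and of the 292 that fell as much 265 were lower and 4 higher. These counts and those of the named genes are descriptions, because the genes were chosen as extreme on the same adriamycin arrays, a choice that favours these directions. In the 20 largest rises and 20 largest falls adriamycin lay beyond UV. The median change after UV was 2.08 for those rises and -0.91 for those falls. Ano3 changed by 0.31 after UV, so that adriamycin exceeded UV by 2.71 ± 0.11, and Spry4 by 0.06 (difference -2.03 ± 0.06). Srgap2 and Phf8 changed by -0.25 and -0.11 after UV, and Rb1 by 0.36 (difference 1.57 ± 0.06). By contrast Gltp did not differ detectably (0.10 ± 0.05, adjusted p = 0.114), Zfp750 and Pou4f3 gave differences of 0.10 ± 0.07 (adjusted p = 0.277) and 0.12 ± 0.11 (0.415), and Mlec was higher after UV (-0.12 ± 0.04, adjusted p = 0.0355).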

How the data were processed

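RNA was hybridised to Affymetrix whole-transcript arrays, and the authors deposited log2 intensities: those of R1E came from Affymetrix Expression Console 1.1 and those of p53-/- cells from RMA in Partek 6.4, per the submitters' processing notes. The algorithm used in Expression Console and the genome build of the probes are not given in the sources used here, and no batch or scan date was available to this work. The deposited log2 values were used as given. Of 28853 probes, 28815 had values on all arrays and 21780 named 1 gene, those of 19935 genes. Where a gene had several probes, the one brightest on average across the 18 arrays stood for it.

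All 21780 probes were fitted in limma 3.58.1 (R 4.3.3) over the 12 R1E arrays, with Benjamini-Hochberg adjustment over all of them and a threshold of 0.05. The p53-/- arrays were fitted separately, and the difference of the effects used the moderated SE of each set with Welch-Satterthwaite degrees of freedom. Simulated data held 19935 genes with 200 changed. There the comparison with mock recovered 97% of 1.5-fold and 99.8% of 2-fold changes with 4.56% of calls false. The contrast with UV recovered 97.6% and 99.8% with 4.64% false, and the difference between the lines 33.4% and 79.8% with 9.87% false. The simulated noise was independent between genes, and far more genes, 9476, were called here against mock. These shares may therefore differ in these data.

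Genes were named by rule, leaving out the lists of p53-activated targets and the pluripotency network, clone and prediction names, and olfactory, vomeronasal, histone and small RNA genes: the 20 largest changes of at least 2-fold in each direction without overlap of arrays, the 12 smallest adjusted p in each direction between 1.5-fold and 2-fold among brighter genes, and up to 3 called members of each list in each direction. Members and lists were chosen with earlier results of these data known. After values were seen, 10 genes that name patterns had drawn into the wrong lists were removed. Replicate numbers did not pair the arrays. Alternatives were quantile normalization, centring, leaving out dim genes, other rules for several probes, a trended robust fit, 8 arrays only, a test against 1.2-fold, a replicate block, 1 fit over 18 arrays and leaving out each array. Results for some items are not reported here.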

Additional observations from a re-analysis of the deposited data

Results flagged for a closer look

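In 31 of 596 groups of 4 arrays, 2 for each of the 298 genes named above, 1 array lay far from the other 3 by Dixon's test at 95%, and chance gives about 1 in 20 such groups. The distances are on the log2 scale, and some are small because the other 3 arrays were nearly equal, as for Adcy7 after adriamycin (6.73 beside 3 arrays at 6.69). In mock replicate 1 the distant values were Adcy7 at 5.40, Anxa7 at 8.08, Gpx3 at 7.51, Rian at 6.32 and Tarsl2 at 7.22. In mock replicate 2 the distant values were Col6a4 at 5.52, Egfr at 5.67, Lama3 at 5.19 and Nr3c1 at 6.70. In mock replicate 3 the distant values were Gclm at 9.29 and Ina at 8.21. In mock replicate 4 the distant values were Apol8 at 5.60, Ddx3x at 11.06, Emp1 at 7.55, Gltp at 8.82, Klhl26 at 6.61, Pfkm at 8.58 and Vegfd at 6.18.

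Adriamycin replicate 1 held E2f2 at 6.10 and Kcnj4 at 6.90. Adriamycin replicate 2 held Sgo2a at 8.38 and Tef at 8.54. Adriamycin replicate 3 held Adcy7 at 6.73, C4b at 6.25, Cacna1b at 7.40, Sec14l5 at 7.92 and Vasp at 7.98. Adriamycin replicate 4 held Dusp4 at 5.90, Krt15 at 6.43, Lmnb1 at 10.22 and Mapre3 at 8.21. No gene's groups overlapped, with or without the distant array.

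The effect of adriamycin differed between R1E and p53-/- cells for 4288 genes by the test of the difference itself. On simulated data with 200 of 19935 genes changed, 9.87% of calls by that test were false. The false share among the 4288 was not estimated. Cell line, genotype and processing cannot be told apart in the difference.

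Probes that name no gene or several were used in no comparison. Of 7035 such probes, 51 (0.725%) were at least 2-fold higher after adriamycin and 35 (0.498%) at least 2-fold lower, with no overlap of arrays.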

How the results depend on the processing

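Centring each array on its median raised the genes called lower from 5096 to 9550, and testing against a change of 1.2-fold left 2334 genes higher and 2088 lower. The 4 counts of genes against mock, the count against UV and the count that differed between the lines otherwise stayed within 1.5 times of the values given, under the alternatives run. Leaving out each array in turn gave 4105 to 4372 genes higher, 4732 to 4955 lower, 764 to 803 at least 2-fold higher and 274 to 305 at least 2-fold lower, 7612 to 8151 that differed from UV and 3198 to 4936 that differed between the lines. The counts of the gene lists depend more on the processing. Of 120 such counts, higher and lower taken apart, 90 moved by over 1.5 times in the test against 1.2-fold, 48 under centring, 39 when dim genes were left out, which removes members, 10 under quantile normalization, and 0 to 6 without 1 array. A single fit over 18 arrays gave 5770 for the last count. No gene named above reversed direction, and Etfb and Smc1b alone lost their call against 1.2-fold (adjusted p = 0.495 and 0.212, limma). Deviations of arrays with the same replicate number correlated at -0.072, -0.025, 0.042 and -0.082, so the numbers share only a label, and the fit with the replicate number as a block gave 4366 genes higher and 5029 lower. Leaving out genes at or below the olfactory level, an alternative chosen after seeing the data, gave 4106 higher and 4822 lower. Dim probes limit what can be seen, since decile 1 of level, the dimmest genes, gave 0.802% higher and 3.06% lower.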
